A study of Mus musculus with 6 samples.

Results

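The genes described here act at successive steps of making, storing and mobilising triacylglycerol, the neutral fat that cells keep in lipid droplets. They are the phosphatidate phosphatases Lpin1, Lpin2 and Lpin3, the lipases Pnpla2, Lipe and Mgll, the lipase regulators Abhd5 and G0s2, the droplet coat protein Plin2 and the secreted lipase inhibitor Angptl4. Members were taken by gene symbol in the platform annotation. All 10 of the 10 listed genes were measured, by 19 probe sets of the 22690 on the array, and they are 10 of the 12393 genes that had a probe set of their own.

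RNA came from cultured mouse embryonic fibroblasts (MEFs), the connective tissue cells of the embryo, which the labels call wild type. The starved group had 3 arrays of cells starved for 6 h, and the control group 3 arrays of cells kept in normal medium. Both groups are a cell culture model described by no passage, strain or embryo, and what was withdrawn from the medium is not stated. Titles call the arrays biological replicates without naming separate cultures, so the p-values reflect the spread among these arrays, part or all of which may be technical. The question is how transcript levels in starved cells compare with those in fed cells.

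In lipid droplet breakdown, Pnpla2 (also called ATGL) starts by removing a fatty acid from triacylglycerol. Lipe (hormone-sensitive lipase) acts next on diacylglycerol, and Mgll finishes with monoacylglycerol. Abhd5 activates Pnpla2 by binding it, and G0s2 binds the same lipase and inhibits it. Lipins work in the opposite branch, turning phosphatidate into the diacylglycerol from which triacylglycerol and phospholipids are built, and lipin 1 is also known as a nuclear coregulator of genes for fat oxidation. Plin2 coats droplets in most cell types, and Angptl4 blocks lipoprotein lipase outside the cell and is known as a fasting-induced gene in adipose tissue and liver.

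Starved fibroblasts had more Pnpla2, on the brighter of its 2 probe sets, and less of its inhibitor G0s2. On the brightest probe set of each gene, these were the 2 largest differences among the 10 genes. The other Pnpla2 probe set, a dim one, fell. With the mean of each gene's probe sets, Pnpla2 (0.43) lay below Lpin1 (0.57) and Lipe (0.57). Lpin1, Lipe and Plin2 were also higher in starved cells, and Abhd5 was lower on the brighter of its 2 probe sets. Lpin2, Lpin3, Mgll and Angptl4 did not pass the test. In all, 4 members rose and 2 fell at an adjusted p below 0.05 (limma with Benjamini-Hochberg adjustment over all 12393 genes). Starvation moved much of the array: 44.1% of all genes passed the same threshold, 22.1% as higher and 22.0% as lower, and read against that share, 6 called genes of 10 is not a result about these genes. Groups did not overlap for 7 of the 10 members, against 54.0% of all genes. The median difference was 0.081 over the members and -0.048 over all genes, and the median size of the difference, ignoring its sign, was 0.37 for the members and 0.20 for all genes. Levels are log2 array signals, differences are starved minus control on that scale, and a gene with several probe sets is represented by the brightest unless another is named.

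**Figure D1:**
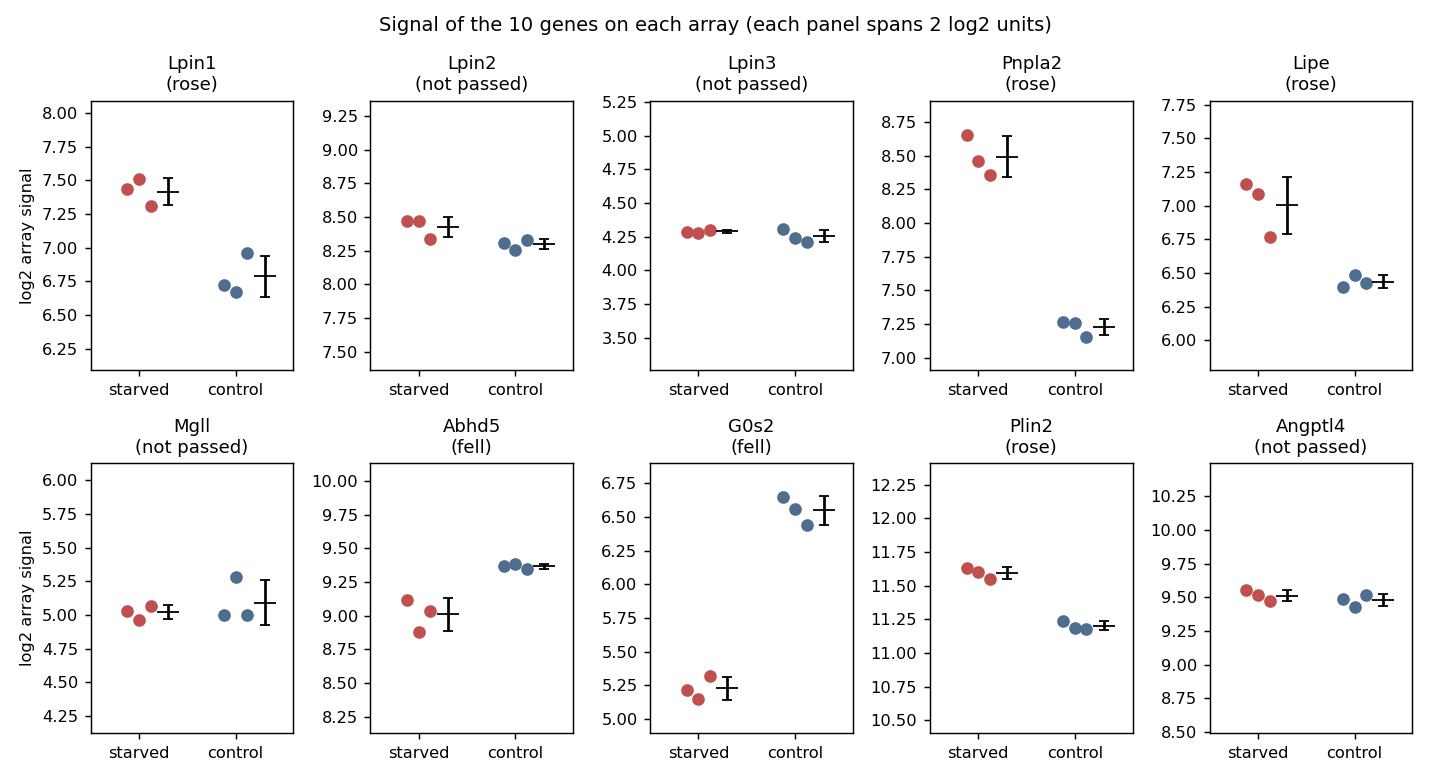
Log2 array signal of the 10 genes, with starved arrays in red and control arrays in blue, and the mean ± SD of the 3 arrays of each group in black. Every panel spans the same 2 log2 units, so the gap of 1.26 for Pnpla2 and the gap of -1.32 for G0s2 can be set against the overlapping points of Lpin3, Mgll and Angptl4.

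Pnpla2 had log2 signals of 8.66, 8.46 and 8.36 in starved arrays, against 7.27, 7.26 and 7.16 in control arrays. The lowest starved array lay above the highest control array by more than the whole range within either group. Pnpla2 rose 2.40-fold (95% interval 2.10 to 2.75; log2 difference 1.26, SE 0.09, adjusted p = 2.97e-06), and 143 of the 12393 genes rose by more. G0s2, measured by a single probe set, had 5.22, 5.15 and 5.32 in starved arrays, against 6.65, 6.56 and 6.44 in control arrays. All starved arrays lay below all control arrays. G0s2 fell 2.50-fold (95% interval 2.20 to 2.84; log2 difference -1.32, SE 0.08, adjusted p = 1.29e-06), and 93 genes fell by more. For scale, 4.38% of all genes differed by 1 or more on the log2 scale in either direction.

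The within-array difference between the lipase and its inhibitor was larger in every starved array than in any control array. The log2 signal of Pnpla2 minus that of G0s2 was 3.26 ± 0.21 in starved and 0.68 ± 0.05 in control arrays (SD, n = 3 each), so the 2 responses differed by 2.59. The within-array values ran between 3.04 and 3.44 in starved arrays and between 0.62 and 0.72 in control arrays, without overlap. An exact two-sided permutation test gave p = 0.1, the smallest p that 3 arrays against 3 allow, and 0.117 after adjustment over the 7 pairs of members compared. With the mean of each gene's probe sets the 2 responses differed by 1.75. By the distance between profiles centred on each gene's own mean, the genes outside the members most like G0s2 over the 6 arrays were Ivns1abp (root mean square distance 0.046), the sterol synthesis enzyme Nsdhl (0.051) and the ribosome assembly factor Ppan (0.064). The 6 arrays fall into only 2 conditions, so likeness here means a fall of similar size.

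The probe sets of Pnpla2 did not agree. The brighter, 1428143_a_at, gave the values above, while 1428591_at read 3.10, 2.92 and 3.19 in starved arrays, against 3.46, 3.47 and 3.48 in control arrays. That probe set lay in the dimmest 6.79% of all probe sets, near the lowest values on the arrays (2.38), and its difference was -0.40 (SE 0.08, adjusted p = 0.00437 over 20380 probe sets). With the mean of both probe sets in place of the brighter, Pnpla2 still rose, by 0.43 (adjusted p = 0.000758).

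Promoter windows are shown for Pnpla2 and G0s2, which had the largest differences, for Plin2 and Lipe, the called members with a CACGTG match, and for Lpin2, whose match lay nearest to the start among the members that did not pass. RefSeq windows of 300 bases (250 before to 50 after an annotated start, build GRCm38.p6) were found for 9 of the 10 genes, 14 windows in all, the other gene being Angptl4. Capitals mark CACGTG, the E-box core that TFEB and many other helix-loop-helix factors bind.
Pnpla2, chr7:141454938-141455237, + strand: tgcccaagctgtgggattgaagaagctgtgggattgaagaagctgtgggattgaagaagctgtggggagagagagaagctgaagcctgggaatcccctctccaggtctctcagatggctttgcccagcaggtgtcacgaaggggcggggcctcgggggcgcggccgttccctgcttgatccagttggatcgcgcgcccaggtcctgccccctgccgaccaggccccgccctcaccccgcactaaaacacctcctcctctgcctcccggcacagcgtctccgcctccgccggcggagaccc
G0s2, chr1:193273139-193273438, - strand: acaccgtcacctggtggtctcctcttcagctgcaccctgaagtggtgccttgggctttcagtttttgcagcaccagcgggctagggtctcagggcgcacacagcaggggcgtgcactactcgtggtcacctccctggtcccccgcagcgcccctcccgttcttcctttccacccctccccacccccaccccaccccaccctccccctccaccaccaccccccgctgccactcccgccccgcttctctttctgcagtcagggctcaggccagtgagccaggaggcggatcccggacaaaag
Plin2, chr4:86670010-86670309, - strand: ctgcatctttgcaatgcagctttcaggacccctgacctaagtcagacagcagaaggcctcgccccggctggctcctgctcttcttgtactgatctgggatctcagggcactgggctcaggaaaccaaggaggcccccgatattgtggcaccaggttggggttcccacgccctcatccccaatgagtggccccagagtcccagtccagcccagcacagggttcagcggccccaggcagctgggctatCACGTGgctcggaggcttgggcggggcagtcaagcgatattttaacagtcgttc
Lipe, chr7:25395938-25396237, - strand: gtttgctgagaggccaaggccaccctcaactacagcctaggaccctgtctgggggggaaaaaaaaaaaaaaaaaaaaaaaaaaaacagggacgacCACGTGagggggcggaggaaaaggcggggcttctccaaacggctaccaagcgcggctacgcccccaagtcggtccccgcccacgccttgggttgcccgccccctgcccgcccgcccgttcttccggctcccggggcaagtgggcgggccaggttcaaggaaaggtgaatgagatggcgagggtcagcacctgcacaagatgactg
Lpin2, chr17:71183282-71183581, + strand: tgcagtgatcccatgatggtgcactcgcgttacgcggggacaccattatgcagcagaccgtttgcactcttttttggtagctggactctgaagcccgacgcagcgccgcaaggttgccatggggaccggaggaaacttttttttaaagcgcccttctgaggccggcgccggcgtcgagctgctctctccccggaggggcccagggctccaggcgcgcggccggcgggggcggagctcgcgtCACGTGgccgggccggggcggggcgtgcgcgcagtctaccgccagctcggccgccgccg
Counted from the annotated start of its own window, the match began at position -4 in Plin2, at -155 in Lipe and at -9 in Lpin2. Position -1 is the last base before that start. In windows not printed, the match began at 23 in Lpin3 and at -44 in Mgll. Windows of Pnpla2 and G0s2 held none of the motifs searched. CACGTG, which reads the same on both strands, was in 5 of the 14 member windows (1 each of Plin2, Lipe, Lpin2, Lpin3 and Mgll), against 7.15% of all 32851 windows. Of these 5 genes, Plin2 and Lipe rose and the other 3 did not pass. TGTTTAC, a forkhead (FoxO) motif searched on both strands, was in 3 of the 14 (1 each of Lipe, Lpin2 and Mgll), against 3.65% of all windows. In Mgll it shared the window with CACGTG. In Lipe and Lpin2 it lay in a window not printed, at another annotated start, so no window of these genes held both motifs. AGGTCANAGGTCA, the direct repeat that PPAR dimers bind, was in 0 of 14 and in 0.0396% of all windows, and TCACNCCAC, a sterol regulatory element, was in 0 of 14 and in 1.24% of all windows. None of the matches overlapped another. A match describes the letters of the window and is neither a shown binding site nor a cause.

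Among the lipins, Lpin1 rose and the other paralogs did not pass. Lpin1 had 7.44, 7.51 and 7.31 in starved arrays, against 6.73, 6.67 and 6.96 in control arrays. The groups were clearly separate, with control replicate 3 closest to the starved ones. Its rise was 1.55-fold (95% interval 1.34 to 1.79; adjusted p = 0.000358). A dimmer probe set, 1418288_at, read 6.37, 6.42 and 6.37 in starved arrays, against 5.90, 5.89 and 5.80 in control arrays. It therefore rose as well, by 0.52 (SE 0.07, adjusted p = 0.000319), and with less spread than the brighter one.

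Lpin2, the paralog best known from liver and from an inherited inflammatory bone disease in people, had 8.47, 8.47 and 8.34 in starved arrays, against 8.31, 8.26 and 8.33 in control arrays. The groups did not overlap but nearly touched, at 8.34 and 8.33. Its difference of 0.13 did not pass (95% interval -0.032 to 0.28, adjusted p = 0.179). The other 2 probe sets of Lpin2 gave 0.14 and 0.13, and both did not pass. In each of them starved replicate 2 stood above the other starved arrays, at 6.79 against 6.22 and 6.29, and at 6.57 against 5.74 and 5.96.

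Lpin3 lay low in the range of the array, with 4.29, 4.28 and 4.30 in starved arrays, against 4.30, 4.24 and 4.21 in control arrays. The groups overlapped, and the difference was 0.035 (95% interval -0.11 to 0.18, adjusted p = 0.697). The response of Lpin1 exceeded that of Lpin2 by 0.50 and that of Lpin3 by 0.60, and the within-array differences did not overlap between the groups in either pair (exact permutation p = 0.1 for each, the smallest possible, adjusted p = 0.117). The responses of Lpin2 and Lpin3 differed by 0.091, with overlapping values (exact permutation p = 0.2).

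Of the lipases that act after Pnpla2, Lipe rose and Mgll did not pass. Lipe had 7.16, 7.08 and 6.76 in starved arrays, against 6.40, 6.49 and 6.42 in control arrays. Starved replicate 3 was the lowest of its group, yet it lay above all control arrays. The rise was 1.48-fold (95% interval 1.26 to 1.73; log2 difference 0.57, SE 0.10, adjusted p = 0.00129). The response of Pnpla2 was larger than that of Lipe by 0.70 (exact permutation p = 0.1, adjusted p = 0.117), but with the mean of the Pnpla2 probe sets this difference turned to -0.13 (exact permutation p = 0.4).

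Mgll, which clears monoacylglycerols including an endocannabinoid, was measured by 4 probe sets, all of them dim. The brightest read 5.03, 4.96 and 5.07 in starved arrays, against 4.995, 5.282 and 4.995 in control arrays. Control replicate 2 stood above every other array, and the groups overlapped. The difference was -0.072 (95% interval -0.27 to 0.13, adjusted p = 0.547), and it was 0.023 without that array. Of the dimmer probe sets, 1453836_a_at rose by 0.46 (SE 0.16, adjusted p = 0.0421), with 5.12, 4.69 and 4.85 in starved arrays, against 4.08, 4.52 and 4.67 in control arrays. The other 2 gave 0.31 and 0.042 and did not pass, so only the brightest of the 4 probe sets lay below 0. With the mean of all 4, the difference of Mgll was 0.18 and did not pass (adjusted p = 0.0763). The response of Pnpla2 exceeded that of Mgll by 1.34, with no overlap of the within-array values (exact permutation p = 0.1, adjusted p = 0.117), but by only 0.25 with the mean of each gene's probe sets.

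Abhd5, the activator of Pnpla2, also gave differing probe sets. The brighter, 1417566_at, read 9.12, 8.88 and 9.04 in starved arrays, against 9.37, 9.38 and 9.35 in control arrays. Every starved array lay below the tightly grouped control arrays, and the fall was 1.28-fold (95% interval 1.13 to 1.44; adjusted p = 0.00429). The other, 1417565_at, read 8.72, 8.52 and 8.55 in starved arrays, against 8.53, 8.50 and 8.53 in control arrays. Its groups overlapped and its difference of 0.074 did not pass (adjusted p = 0.477). With the mean of both, the difference of Abhd5 was -0.14 and did not pass (adjusted p = 0.144). Between Pnpla2 and Abhd5 the responses differed by 1.62 on the brighter probe sets (exact permutation p = 0.1, adjusted p = 0.117) and by 0.57 with the mean of each gene's probe sets.

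**Figure D2:**
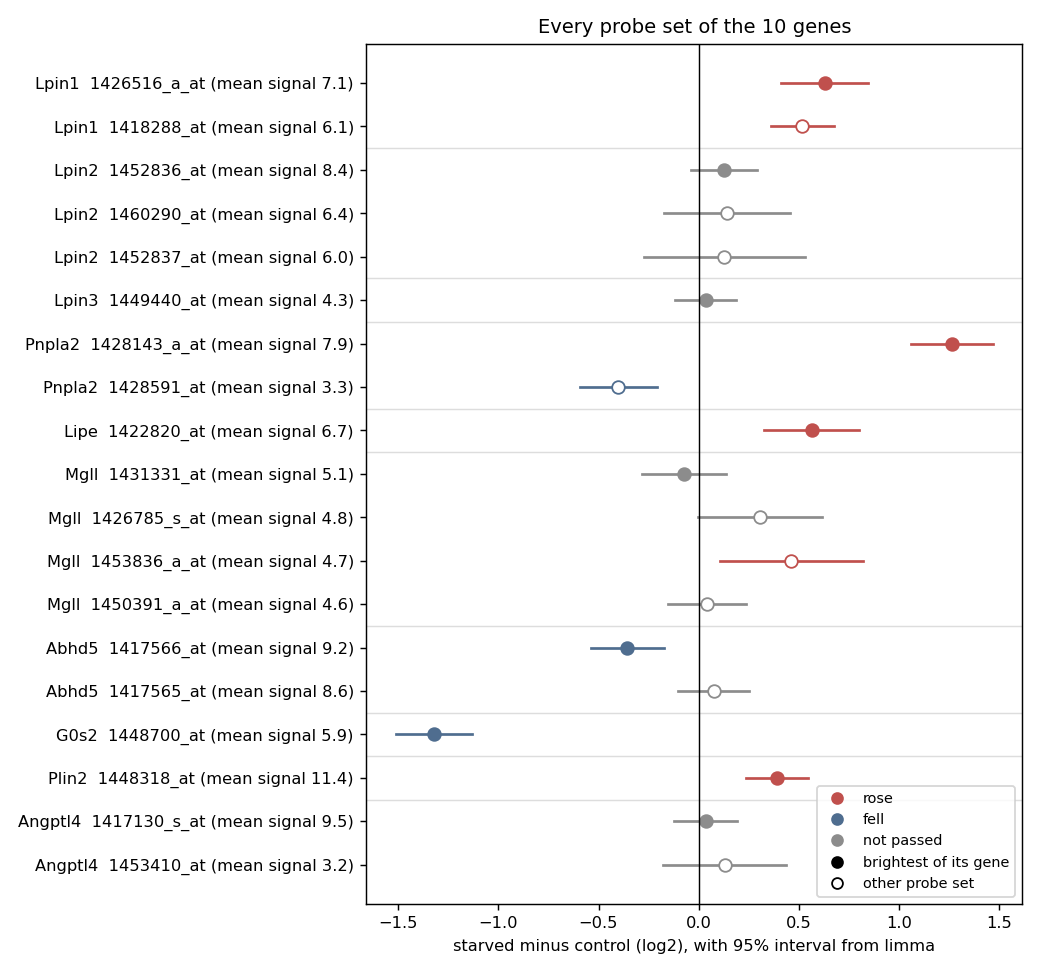
Starved minus control difference on the log2 scale for each of the 19 probe sets, as points with the 95% interval from limma. Filled points are the brightest probe set of a gene, open points the others. Both probe sets of Lpin1 lie to the right of 0, at 0.63 and 0.52, while those of Pnpla2 lie on opposite sides, at 1.26 and -0.40, and the lower one has a mean signal of 3.27.

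Plin2 and Angptl4 stand for the droplet surface and for the fate of fatty acids outside the cell. Plin2 had 11.63, 11.60 and 11.55 in starved arrays, against 11.24, 11.19 and 11.18 in control arrays. The spread within each group was a small part of the gap between them, and the rise was 1.31-fold (95% interval 1.18 to 1.45; log2 difference 0.39, SE 0.07, adjusted p = 0.000917). Angptl4 had 9.56, 9.52 and 9.47 in starved arrays, against 9.49, 9.43 and 9.52 in control arrays. The arrays of both groups were interleaved, and the difference of 0.035 did not pass (95% interval -0.12 to 0.19, adjusted p = 0.705). The upper end of that interval corresponds to a 1.14-fold rise. These values came from 1417130_s_at, whose suffix s marks probes that may bind several transcripts. The only other probe set of Angptl4, 1453410_at, was dim, with a mean signal of 3.16. It gave 0.13 and did not pass either (95% interval -0.18 to 0.44, adjusted p = 0.476). The narrow interval of Angptl4 therefore rests on 1417130_s_at alone.

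Over all 19 probe sets, 6 rose and 3 fell, against 20.4% of the 20380 probe sets that rose, 20.5% that fell and 40.9% that passed in either direction. Groups did not overlap for 10 of the 19, against 52.2% of all probe sets.

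How far the smaller rises hold depended on how the arrays were scaled. The deposited values fix the overall signal distribution of each array, and 50.1% of all calls were higher in starved cells. After subtracting each array's mean hybridization spike-in signal this share was 21.5% (1673 higher and 6102 lower). With centring on its poly-A spike-ins, control RNAs designed to be added in known amounts, it was 8.45% (860 higher and 9321 lower). Both centrings were applied to the deposited values, after their normalization. Each used the mean of all its spike-in probe sets (24 poly-A, 18 hybridization). Whether these spike-ins were added, or lay above background, was not checked. Hybridization centring subtracted 0.19 from every difference. Poly-A centring subtracted 0.43 and moved the median of all genes to -0.47. Pnpla2 remained higher under it, by 0.84 (adjusted p = 1.5e-06). The rises of Lpin1 (0.20, adjusted p = 0.0783) and Lipe (0.14, adjusted p = 0.227) did not pass, and Plin2 lay at -0.035. G0s2 and Abhd5 fell, as did Lpin2, Lpin3, Mgll and Angptl4. Since each centring subtracts 1 value per array, the order of the 10 differences was the same in all of them, and its error is shared by all genes.

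**Figure D3:**
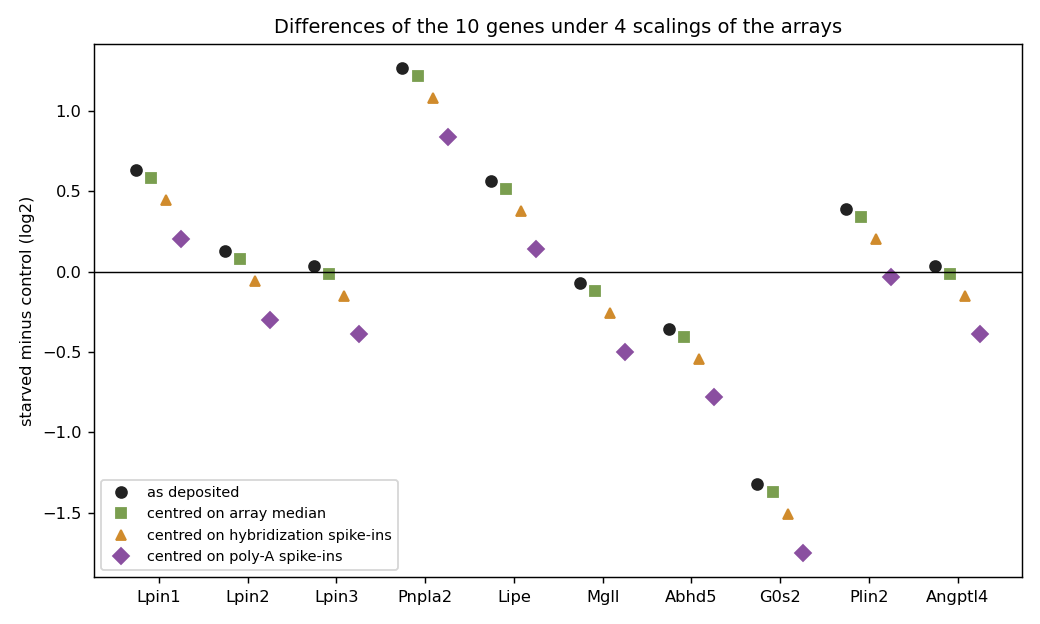
Starved minus control difference on the log2 scale for the 10 genes, as deposited and with each array centred on its median, on its hybridization spike-ins or on its poly-A spike-ins. Pnpla2 stays above 0 and G0s2 and Abhd5 below 0 in all 4, while Plin2 is at 0.39 as deposited and at -0.035 with poly-A centring.

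Genes of glycerolipid synthesis, the branch in which lipins work, went both ways. Of 16 measured genes of 22 listed, 3 rose, 7 fell and 6 did not pass. Their median was -0.073, against -0.048 over all genes. Agpat5, an acyltransferase that makes phosphatidate, fell by 1.24 (SE 0.07, adjusted p = 1.07e-06), and Acsl4, which activates polyunsaturated fatty acids, fell by 1.22 (SE 0.11, adjusted p = 1.69e-05). Dgat2, which makes triacylglycerol from the diacylglycerol that lipins supply, fell by 0.81 (SE 0.10, adjusted p = 0.000118), while Dgat1, its counterpart, was at -0.098 and did not pass. The lipid phosphatase Plpp3 fell by 0.50. Lclat1, an acyltransferase of cardiolipin remodelling, rose by 0.75 (SE 0.07, adjusted p = 2.78e-05), the lipid phosphatase Plpp1 by 0.39 and Mogat2 by 0.29. Dgat1 lies outside the naming rule and was named after its value was seen. Its probe set has the suffix s and may bind several transcripts.

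Of 26 measured genes in the list of other droplet proteins and lipases (31 listed), 10 rose, 6 fell and 10 did not pass, and the median was -0.029. The 4 rises with the smallest adjusted p were Mettl7a1 (0.85), the lipase relatives Abhd4 (0.61) and Pnpla8 (0.60), and caveolin Cav1 (0.60). Mettl7a1 and Abhd4 were read from probe sets with suffix x, which may bind several transcripts. On the other side were Pcyt1a (-0.50), which controls phosphatidylcholine synthesis, the monoacylglycerol lipase Abhd6 (-0.45), the coat protein Plin4 (-0.46) and Hilpda (-0.45), a hypoxia-induced droplet protein that inhibits Pnpla2. Hilpda had 7.12 ± 0.08 in starved and 7.57 ± 0.07 in control arrays (SD, n = 3 each; adjusted p = 0.00077). Of the perilipins beside Plin2, named after their values were seen, Plin3 rose by 0.62 (adjusted p = 0.0011), Plin4 fell and Plin5 (0.11) did not pass.

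Plin2 and Angptl4 are known targets of the fatty acid receptors of the PPAR family, and the other PPAR targets went both ways. Of 19 measured genes of the 23 listed, 5 rose, 6 fell and 8 did not pass, and the median was -0.080. Txnip (2.55), Pdk4 (1.59), the carnitine transferase Cpt1a (0.49) and Acadm (0.29) rose. Acot2 (-1.53), the fatty acid carrier Fabp4 (-0.81), the hormone Fgf21 (-0.72) and Acaa2 (-0.26) fell. In the list around lipoprotein lipase, the enzyme that Angptl4 inhibits, 2 of 12 measured genes rose, 3 fell and 7 did not pass (17 listed, median -0.069). Angptl6 fell by 0.96 and Vldlr by 0.36, the lipase chaperone Lmf1 fell by 0.30, Apoe rose by 0.92 and Lrp1 by 0.68, and lipoprotein lipase itself, Lpl, stood at 0.12 without passing. Lpl was named after its value was seen. The probe sets of Acaa2 (suffix s) and Vldlr (suffix x) may bind several transcripts. The rises of Plpp1, Mogat2 and Acadm are smaller than the 0.43 that poly-A centring subtracts, so these genes lie below 0 under it.

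**Figure D4:**
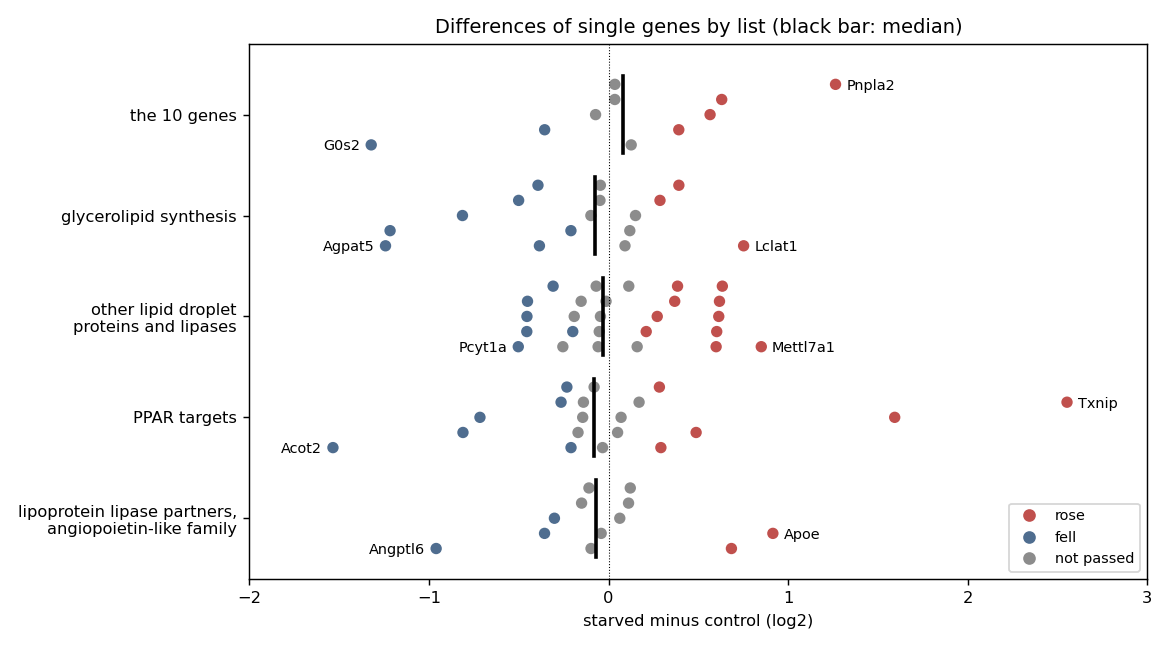
Starved minus control difference on the log2 scale, with a point for each measured gene of the 10 described here and of the 4 other lists, coloured by whether it rose, fell or did not pass, and a black bar at the median of each list. The medians lie between -0.080 and 0.081, and each list holds genes on both sides of 0.

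Marker genes were checked against the label. Of 10 fibroblast markers all were measured and 0 lay in the dimmest 25% of genes. Of these 6 rose, 2 fell (Thy1, -0.40, and Pdgfrb, -0.28) and 2 did not pass, and the groups did not overlap for any of the 10. Their summed signal (log2 of the sum of linear signals) ran between 16.28 and 16.29 in starved arrays and between 16.03 and 16.07 in control arrays. Of 8 measured adipocyte markers 0 rose, 2 fell (Fabp4, -0.81, and Slc2a4) and 6 did not pass, with summed signals between 9.64 and 9.79 in starved arrays and between 9.89 and 9.94 in control arrays. Adipoq, the defining adipocyte hormone, lay near the lowest values of the array at 3.00 ± 0.32 in starved and 3.16 ± 0.22 in control arrays (SD, n = 3 each). Of 10 macrophage and blood cell markers 1 rose (Cd68, 0.44) and 2 fell (Cd14, -0.46, and Coro1a, -0.24), with summed signals of 8.60 to 8.73 in starved and 8.84 to 8.90 in control arrays. Of 5 endothelial markers 2 fell (Kdr, -0.27, and Pecam1, -0.27), with summed signals of 6.10 to 6.20 in starved and 6.22 to 6.33 in control arrays. Of 5 epithelial markers Cdh1 rose (0.91) and the others did not pass, with summed signals of 7.16 to 7.31 in starved and 7.27 to 7.44 in control arrays. Cdh1 was dim, at 4.36 ± 0.13 in starved and 3.44 ± 0.17 in control arrays (SD, n = 3 each). Of these 5 markers 3 lay in the dimmest 25% of genes. The brightest adipocyte marker, Lpl, was at 0.12. Summed adipocyte, macrophage and endothelial markers were each lower in starved arrays without overlap, as was G0s2. Many of these markers were dim: 4 of 8 adipocyte, 4 of 10 macrophage and all 5 endothelial ones lay in the dimmest 25% of genes. For scale, the groups did not overlap, in either direction, for 54.0% of all genes. Dim genes leaned lower as a class. Without the dimmest 40% of genes, the calls went from 2735 higher and 2728 lower to 2681 and 2205. The median difference went from -0.048 to 0.021. The part of these markers in the fall of G0s2 was not tested. In RNA from whole cultures, fewer cells of a type and less RNA per cell cannot be told apart.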

How the data were processed

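Per the labels, total RNA of 3 starved and 3 control samples was made into biotin-labelled cRNA and hybridised with 1 sample per array. The authors deposited log2 values, 1 per probe set and array, made with affy and RMA per the submitters' processing notes, with versions not given in the sources used here. This method subtracts background, gives all arrays the same quantiles and combines the probes of a set, so a change in total messenger RNA per cell is removed and differences of dim genes are compressed. Array medians lay between 6.73 and 6.81, and the number of arrays limits the precision.

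The platform annotation gave 1 gene for 20380 of the 22690 probe sets, and only these were used. It gave several genes for 691 and none for 1555, and 64 were array controls. No symbol needed updating against RefSeq. Each of the 12393 genes took its brightest probe set over all arrays, with no filter on dim genes. Starved was compared with control in limma (version 3.58.1, R version 4.3.3) by lmFit and eBayes on all 6 arrays without covariates. Two-sided p-values were adjusted by Benjamini-Hochberg over all genes, or over all 20380 probe sets where single probe sets are given, and called below 0.05. Responses of 7 pairs of members were compared by exact permutation (scipy 1.17.1). Python 3.11.15, pandas 2.3.3 and matplotlib 3.10.9 served for tables and plots. The fit was also run on simulated arrays with independent noise and far fewer changed genes than were called here. That run differs from these data and is not used as support.

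The members and lists were chosen with earlier results of these data known. Named genes are the 10 members, up to 4 risen and 4 fallen genes of each other list by smallest adjusted p, and the 3 genes closest to the member with the largest difference. Marker genes that passed, and other genes said to be so, were named after their values were seen. Alternatives averaged all probe sets per gene, dropped cross-hybridising probe sets (suffix s or x), dropped the 40% dimmest genes, repeated quantile normalization, centred arrays on their median, on poly-A or on hybridization spike-ins, used array weights or a robust trended eBayes, added the replicate number as a block, dropped each array in turn, set the threshold to 0.01, or applied treat with a fold change of 1.2.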

Additional observations from a re-analysis of the deposited data

How the results depend on the processing

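Of 177 values of single members under the alternatives, 156 kept their direction and their side of the threshold, 6 lost their call with the same sign, 2 gained one with the same sign and 13 changed sign. With poly-A centring, sign changes also made Lpin2 (adjusted p = 0.00868), Lpin3 (0.00159) and Angptl4 (0.00145) pass as lower, and Plin2 (0.749) no longer passed. Leaving out each array in turn kept 6 members called (4 higher, 2 lower) in every case, with 4541 to 5317 genes called in all. Poly-A centring called 1 member as higher and 6 as lower (probe sets: 1 and 11), with 10181 genes called, 860 higher and 9321 lower; centring on hybridization spike-ins called 1673 genes as higher and 6102 as lower. Requiring more than a fold change of 1.2 left 2253 genes (1314 higher, 939 lower), 4 members (3 higher, 1 lower) and 4 member probe sets (3 higher, 1 lower). Abhd5 (1.28-fold lower, adjusted p = 0.468) and Plin2 (1.31-fold higher, adjusted p = 0.184) lost their calls to this stricter test, although both estimates exceed 1.2. An adjusted p below 0.01 left 1782 genes as lower. Averaging all probe sets per gene left 1 member as lower, since Abhd5 was lost. Leaving out the dimmest 40% of genes removed G0s2, Lpin3 and Mgll, which left 1 member and 1 member probe set as lower. Signs turned for members that had not passed: Lpin2 was at -0.30 with poly-A and -0.061 with hybridization centring; Lpin3 at -0.015, -0.39 and -0.15 with median, poly-A and hybridization centring; Angptl4 at -0.031 with quantile normalization and at -0.015, -0.39 and -0.15 with the 3 centrings; and Mgll at 0.18 with the mean of its probe sets, 0.016 with quantile normalization, and -0.12 to 0.023 as arrays were left out. Of the called members Plin2 turned to -0.035 with poly-A centring, and lost its call with hybridization centring (0.20, adjusted p = 0.0541). The response of Pnpla2 minus that of Lipe turned to -0.13 with the mean of probe sets, which includes the dim Pnpla2 probe set, and with it the response of Pnpla2 exceeded that of Mgll by 0.25 and that of Abhd5 by 0.57. Other causes were not tested. Same-numbered arrays shared only a number: deviations from the group means correlated at -0.0046, -0.022 and 0.0021 for replicates 1, 2 and 3. With the replicate number as a block, 6 members (4 higher, 2 lower) and 5274 genes were called. Signals near the low end of the arrays, as for Lpin3, Mgll and the dim probe sets of Pnpla2 and Angptl4, limit what can be seen there.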
